A study of Homo sapiens with 4 samples.

Results

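The NY-ESO-1, PAGE, XAGE and SSX antigens are cancer-testis proteins, and their 10 genes on the X chromosome were followed in HCT116 colon cancer cells exposed to the DNA methylation inhibitor 5-azacytidine. The 10 genes are CTAG1A and CTAG1B, which encode NY-ESO-1, CTAG2, which encodes the related LAGE-1, PAGE1, PAGE2, PAGE5, XAGE1B, SSX1, SSX2 and SSX4. They were chosen by name, with earlier results of these data known. They were looked up through the RefSeq accession that the array gives for each probe, among 21611 gene symbols found that way. Of the 10 genes, 6 were matched by their own accession, with 8 probes. A further 4 probes carry the accession of a near-identical copy, 1 of XAGE1A for XAGE1B and 3 of SSX4B for SSX4, which makes 12 probes in all. CTAG1B was represented by the CTAG1A probe alone, and no probe was matched to PAGE5. The probe sequences were not used here, so whether a probe reads 1 copy or both was not tested. The 4 copy probes were included after their values had been seen.

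HCT116 is an established human colorectal carcinoma line. Repeated passage through transwell membranes had divided it into MG cells, which migrated, and non-MG cells, which did not. Each population received 5 µM 5-azacytidine or vehicle for 48 h, and 4 single-colour Agilent arrays were hybridised, 1 per condition. MG and non-MG cells are therefore 1 enriched population each of 1 line, no value below has a replicate, and no test between conditions was made.

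Cancer-testis genes are transcribed in the germ cells of the testis and are silent in most other adult tissues, where their promoters carry DNA methylation. The proteins are known as tumour antigens because T cells and antibodies of patients can recognise them when a tumour switches the genes on again. 5-Azacytidine is a cytidine analogue that is built into nucleic acids and traps DNA methyltransferases, so that methylation is lost as cells divide. The PAGE and XAGE genes belong to the GAGE superfamily. The SSX genes encode nuclear repressor proteins, and in synovial sarcoma they are fused to SS18. Many of these genes lie in inverted or tandem repeats of the X chromosome, and copies within a repeat differ by few bases.

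Promoter windows are shown first, because DNA methylation acts at CpG dinucleotides and the copies cannot be told apart from their sequence. RefSeq windows of 300 bases (250 before and 50 after the start of the gene, GRCh38.p14) were matched for 7 of the 10 genes, namely PAGE1, PAGE2, PAGE5, XAGE1B, SSX1, SSX2 and SSX4. The first window printed here belongs to XAGE1B (chrX:52516963-52517262, minus strand), whose copy XAGE1A gave the probe with the highest drug bound. Others belong to PAGE2 (chrX:55088768-55089067, plus strand), which was detected on every array, and to PAGE1 (chrX:49695935-49696234, minus strand) and SSX2 (chrX:52707178-52707477, minus strand), which were detected with 5-azacytidine only. SSX1 (chrX:48255142-48255441, plus strand) was not detected, and PAGE4 (chrX:49829010-49829309, plus strand) is a relative that was detected on every array and is outside the 10 genes. Each is written 5′ to 3′ on the strand of the gene, with every CpG in capitals.
XAGE1B: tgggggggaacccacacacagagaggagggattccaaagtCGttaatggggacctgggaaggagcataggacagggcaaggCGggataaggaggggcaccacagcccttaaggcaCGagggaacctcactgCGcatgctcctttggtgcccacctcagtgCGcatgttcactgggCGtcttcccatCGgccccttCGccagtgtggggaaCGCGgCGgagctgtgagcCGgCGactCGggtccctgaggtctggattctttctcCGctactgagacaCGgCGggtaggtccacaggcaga
PAGE2: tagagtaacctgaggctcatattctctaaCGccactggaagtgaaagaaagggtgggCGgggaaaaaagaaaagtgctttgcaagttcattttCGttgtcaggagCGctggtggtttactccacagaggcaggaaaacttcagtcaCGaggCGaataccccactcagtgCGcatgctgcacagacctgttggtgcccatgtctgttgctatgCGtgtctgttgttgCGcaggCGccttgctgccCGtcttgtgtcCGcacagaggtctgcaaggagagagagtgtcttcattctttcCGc
PAGE1: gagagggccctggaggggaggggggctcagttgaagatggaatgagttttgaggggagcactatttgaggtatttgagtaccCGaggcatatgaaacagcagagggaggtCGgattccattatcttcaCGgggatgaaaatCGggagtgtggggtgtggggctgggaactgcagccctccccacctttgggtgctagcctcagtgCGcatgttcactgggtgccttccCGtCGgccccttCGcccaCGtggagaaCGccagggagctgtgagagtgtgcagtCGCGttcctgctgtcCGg
SSX2: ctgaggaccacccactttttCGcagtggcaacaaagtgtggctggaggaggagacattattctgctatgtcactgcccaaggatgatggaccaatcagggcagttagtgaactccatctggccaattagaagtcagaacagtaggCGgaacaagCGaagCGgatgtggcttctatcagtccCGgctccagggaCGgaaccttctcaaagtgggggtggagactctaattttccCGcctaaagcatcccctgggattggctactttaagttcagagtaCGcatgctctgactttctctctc
SSX1: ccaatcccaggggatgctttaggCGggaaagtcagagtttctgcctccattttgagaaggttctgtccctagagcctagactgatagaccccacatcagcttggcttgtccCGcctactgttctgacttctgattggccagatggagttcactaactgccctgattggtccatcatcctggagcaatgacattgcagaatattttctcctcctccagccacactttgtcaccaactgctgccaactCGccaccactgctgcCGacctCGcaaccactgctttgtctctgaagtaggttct
PAGE4: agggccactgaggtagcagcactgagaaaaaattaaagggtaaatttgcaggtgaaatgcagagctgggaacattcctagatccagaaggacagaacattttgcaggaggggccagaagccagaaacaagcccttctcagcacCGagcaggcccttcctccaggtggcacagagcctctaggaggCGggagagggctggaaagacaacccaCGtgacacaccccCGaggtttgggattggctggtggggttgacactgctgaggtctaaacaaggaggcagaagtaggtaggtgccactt

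The window of XAGE1B held 17 CpG, those of PAGE1 and PAGE2 13 each, that of SSX4 12, that of PAGE5 10, that of SSX2 8 and that of SSX1 5. RefSeq gives further windows for XAGE1B, with 15 and 14 CpG, and for SSX2, with 10. The PAGE4 window printed above held 4. Over all 35116 windows the median was 14 CpG, with quartiles of 4 and 28, so every window of the 7 genes lay between the lower and the upper quartile. The letters GCGCATG, searched on both strands with overlapping matches counted (the reverse complement is CATGCGC), were present in the windows of 5 of the 7 genes and in 4.43% of all windows. They were found 3 times in PAGE5, 2 times in XAGE1B and once in PAGE1, PAGE2 and SSX4, and were not found in SSX1 or SSX2. They are not particular to the followed genes. Among relatives other than the copies, GAGE1, PAGE2B, PAGE3, XAGE3 and XAGE5 also held them in a window, and PAGE4, XAGE2, SSX5 and SSX7 did not. These letters were picked after the windows had been read, and the counts are a description.

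**Figure D1:**
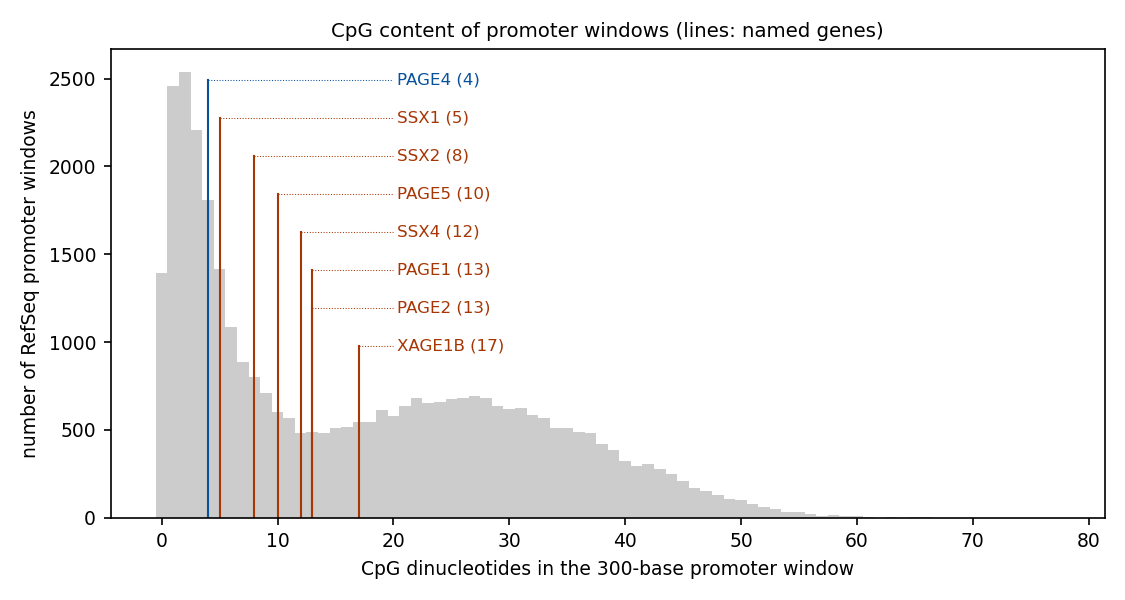
Number of RefSeq promoter windows of 300 bases (vertical axis) by their count of CpG dinucleotides (horizontal axis), over 35116 windows. Vertical lines mark the first listed window of 7 antigen genes, from 5 CpG in SSX1 to 17 in XAGE1B, and of PAGE4 with 4 CpG.

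The windows of XAGE1A and XAGE1B were equal at 300 of 300 bases, and so were those of SSX2 (the window with 10 CpG) and SSX2B. Those of SSX4 and SSX4B were equal over the 227 bases on which they overlap. By the best shift without gaps, PAGE2 and PAGE5 were equal at 56.5% of 269 bases. An inserted or lost base lowers this value, so it can understate their likeness. A probe for a transcript of a pair with equal windows is given below under the name of its accession.

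Values are background-corrected intensities in the scanner's linear units. A probe was well above background on an array where the scanning software flagged at least 50% of its spots so. The lowest such signal was 9.95 to 11.8 over the 4 arrays, and 42.3% to 43.3% of 50594 probes were well above background on each. For ratios, each log2 intensity was taken relative to the 75th percentile of its array, which was 75.2 to 98.7. Where the dimmer of a pair of arrays was not well above background, the ratio was replaced by a bound against the higher of that array's lowest detected signal and the probe's own signal, written as "at least". Ratios of antigen probes in this scaling are given with their spot error, as are some ratios of other genes. The spot error was derived from 902 probes spotted 10 times on each array and covers spotting and scanning, not differences between cultures. All 4 arrays were on 1 slide, with non-MG cells in row 1, MG cells in row 2, vehicle in column 3 and 5-azacytidine in column 4, so position cannot be told apart from cells or treatment.

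Markers were read for what the cultures held. Of 11 epithelial and colon genes, 9 were well above background on 1 or more arrays and 8 on all 4, while LGALS4 and VIL1 were not detected. The summed intensity of all 11 was 119809 to 143964 per array. KRT19 was the brightest, at 53725 to 63517. Of 6 fibroblast genes only COL1A1 was detected, at 56.6 to 94.3. Among blood genes, CD3E, HBB, ITGAM and PTPRC were not detected, while CD14 was dim and higher with 5-azacytidine (17.1 and 27.1 in non-MG cells with vehicle and 5-azacytidine, 13.5 and 26.3 in MG cells). Of 14 germ cell genes, 9 were not detected, and the sum of the 14 was 206 and 159 in non-MG cells and 159 and 170 in MG cells. SYCP3, a protein of meiotic chromosome axes, was well above background with 5-azacytidine only (27.3 in non-MG and 29.8 in MG cells). DAZL, a germ cell RNA-binding protein, was detected in MG cells with 5-azacytidine only, at 18.3. ACR, the sperm protease acrosin, was lower with the drug by its brightest probe, at 118 and 58.6 in non-MG cells (log2 -0.80, spot error 0.14) and 53.6 and 43.3 in MG cells (log2 -0.27, spot error 0.20), and lower in MG cells under each treatment. The part of these genes in the antigen values was not tested.

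With 5-azacytidine, 9 of the 12 antigen probes were raised in non-MG cells and 8 in MG cells, 3 and 4 had no value, and none was lowered. With vehicle, 3 of the 12 probes were well above background in non-MG cells and 4 in MG cells, and with 5-azacytidine 9 and 8 were. All 9 that could be compared in non-MG cells were raised past 1.5-fold by their ratio or bound, against 3.91% of all probes tested in the same way, and all 8 in MG cells, against 5.69%. No antigen probe was lowered in either population, where 2.54% and 4.02% of all probes were. Of these, 6 probes in non-MG cells and 4 in MG cells could be compared only because they were detected with 5-azacytidine, so they had to be higher there and the counts are no evidence of direction. The probes that crossed from not detected with vehicle to well above background with 5-azacytidine were 6 of 9 in non-MG cells and 4 of 8 in MG cells. Among all undetected probes 3.1% and 3.7% did so. The genes were chosen with earlier results of these data known, so the counts beside these shares are a description and not a test.

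Well above background without the drug as well as with it, on every array, were 3 of the 12 probes, that of CTAG1A and both of PAGE2. All 3 were raised past 1.5-fold in each population, against 1.94% of the 19809 probes detected on all 4 arrays in non-MG cells and 3.09% in MG cells. The median log2 ratio of all probes with a ratio was -0.04 in non-MG and -0.02 in MG cells. By own accession alone, without the 4 copy probes, 6 probes were raised in each population. With normexp background correction 5 probes were raised in each, and the calls of PAGE1, SSX2 probe 2 and SSX4B probes 1 and 3 in non-MG cells, and of PAGE1, SSX2 probe 2 and SSX4B probe 3 in MG cells, were lost. With quantile normalization 6 were raised in MG cells, without PAGE1 and SSX4B probe 3.

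**Figure D2:**
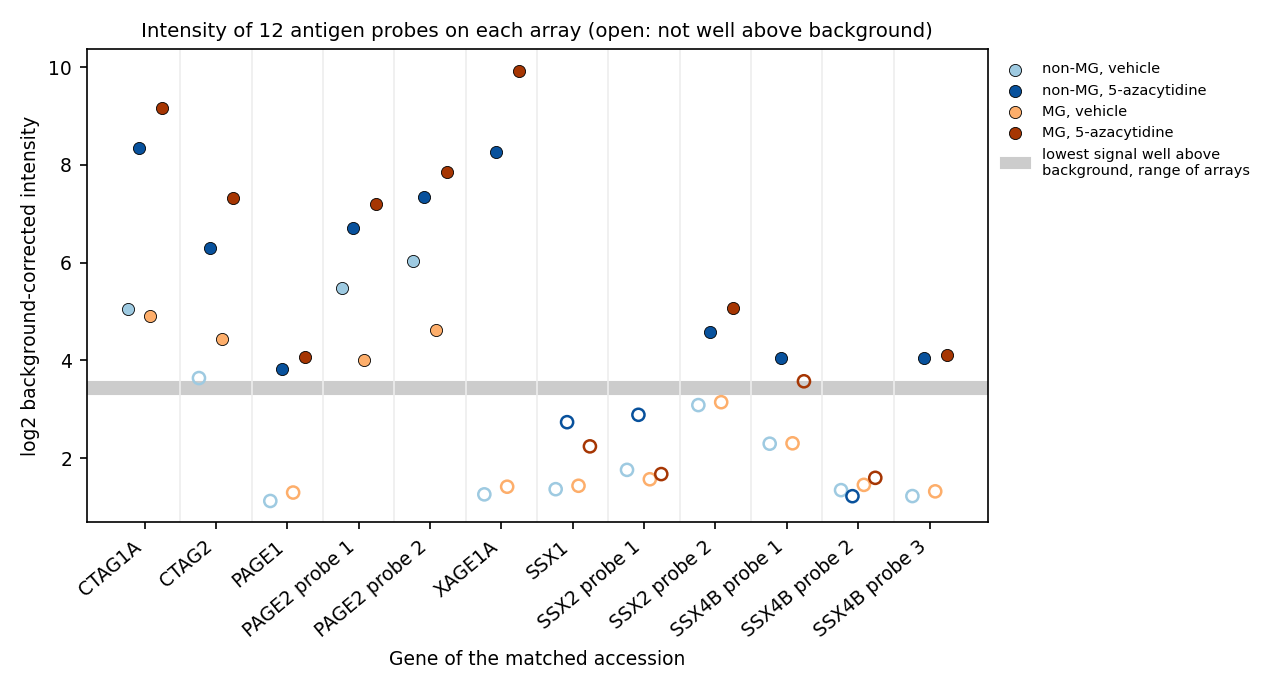
Log2 background-corrected intensity (vertical axis) of the 12 antigen probes on each of the 4 arrays, named by the gene of the accession; each point is 1 array, open points were not well above background, and the grey band is the range of the lowest detected signal. The XAGE1A probe lies below the band on both vehicle arrays and above all its other values in MG cells with 5-azacytidine, while the CTAG1A and PAGE2 probes lie above the band on all 4 arrays. Levels of different probes are not comparable.

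NY-ESO-1 was already transcribed without the drug. The CTAG1A probe gave 33.3 in non-MG cells with vehicle and 328 with 5-azacytidine, and 30.0 and 572 in MG cells, well above background on every array. Both vehicle arrays were low and close to each other, and the MG array with 5-azacytidine was the highest. The rise was 11.4-fold in non-MG cells (log2 3.51, spot error 0.13) and 19.5-fold in MG cells (log2 4.29, spot error 0.21), and with normexp 5.02-fold and 7.83-fold. Among the 19809 probes detected on all arrays it was the 5th highest ratio in each population. CTAG1A and CTAG1B encode the same protein, and the value of this probe stands here for both genes. Whether the probe reads both transcripts, or also that of the related CTAG2, was not tested.

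CTAG2, the gene of the NY-ESO-1 relative LAGE-1, gave 12.5 and 78.6 in non-MG cells with vehicle and 5-azacytidine and 21.8 and 160 in MG cells. Only the non-MG vehicle value was not well above background. The rise was at least 7.30-fold in non-MG cells and 7.51-fold in MG cells (log2 2.91, spot error 0.22). With normexp these values were 2.06-fold and 2.48-fold. The bound in non-MG cells and the ratio in MG cells cannot be ordered.

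XAGE1 had the highest drug ratio or bound of the 10 genes in each population. The XAGE1A probe gave 2.40 with vehicle and 309 with 5-azacytidine in non-MG cells, and 2.67 and 973 in MG cells. It was not well above background on either vehicle array and far above it on both drug arrays. The rise was at least 35.6-fold in non-MG cells and at least 86.8-fold in MG cells, which holds for this scaling, since with normexp the values were log2 2.69 and 3.89. These bounds were the 4th highest of 22645 ratios and bounds in non-MG cells and the 3rd highest of 22725 in MG cells. Bounds and ratios were ranked together, so these places are not an order of the rises themselves. XAGE1 encodes a small nuclear antigen, and XAGE1A and XAGE1B are its copies.

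PAGE2, a GAGE-related gene, was detected without the drug and was read by 2 probes. The probe drawn as PAGE2 probe 1 gave 44.6 and 105 in non-MG cells with vehicle and 5-azacytidine, and 16.2 and 148 in MG cells. PAGE2 probe 2 gave 65.6 and 162 in non-MG cells, and 24.6 and 232 in MG cells. In both, the lowest array was MG cells with vehicle and the highest was MG cells with 5-azacytidine. The rise in non-MG cells was 2.73-fold (log2 1.45, spot error 0.15) by probe 1 and 2.86-fold (log2 1.52, spot error 0.11) by probe 2. In MG cells it was 9.32-fold (log2 3.22, spot error 0.22) and 9.66-fold (log2 3.27, spot error 0.22). With normexp the values were 1.72-fold and 1.92-fold in non-MG cells and 3.01-fold and 2.96-fold in MG cells. The probes share the same RNA and are not replicates. Whether they also read transcripts of the related genes PAGE2B and PAGE5 was not tested.

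PAGE1, of the same family, was detected with 5-azacytidine only and stayed close to the limit. Its probe gave 2.18 and 14.1 in non-MG cells and 2.46 and 16.9 in MG cells. The rise was at least 1.63-fold in non-MG and at least 1.51-fold in MG cells. The bound in MG cells lay just past the threshold and fell below it when the 75th percentile was taken over spots in place of probes, with 7 of 8 probes then raised. It also fell below it with median centring (1.47-fold, 7 probes raised), quantile normalization (1.43-fold) and normexp (1.14-fold). The scaling over spots was computed before the one used here, and the change was made after its result had been seen.

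**Figure D3:**
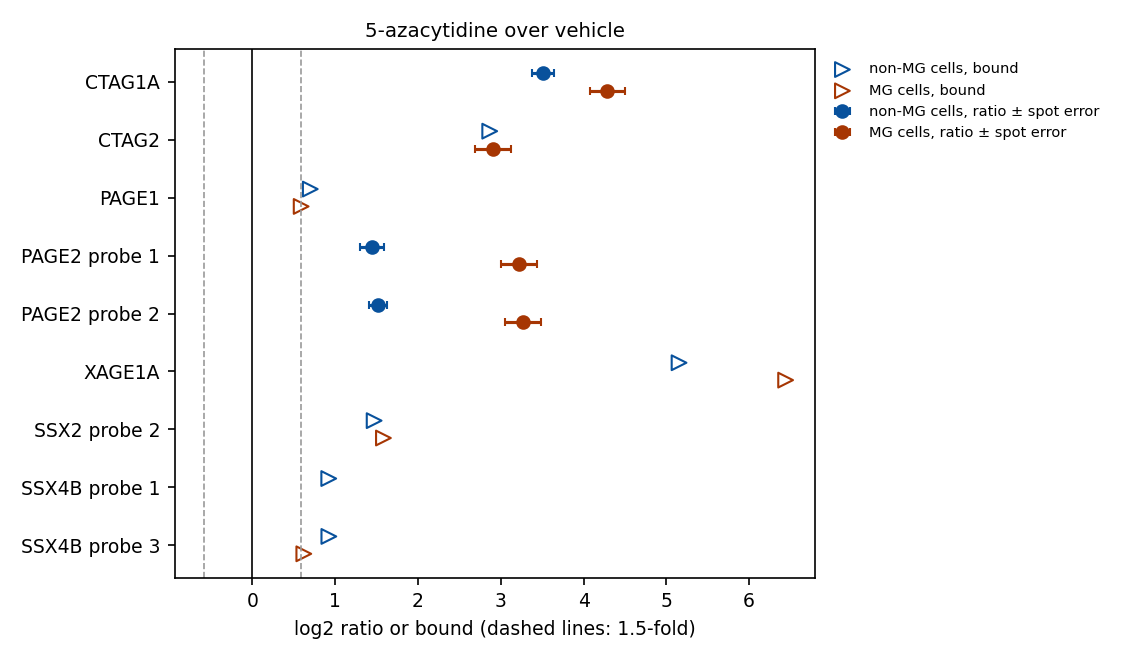
Log2 ratio of 5-azacytidine over vehicle (horizontal axis) for each antigen probe with a value, in non-MG cells (blue) and MG cells (brown); filled points are ratios with the spot error, open triangles are lower bounds, and dashed lines mark 1.5-fold. XAGE1A has the highest bounds, CTAG1A the highest ratios, and both PAGE2 probes lie further right in MG than in non-MG cells.

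The SSX genes, whose products repress transcription, gave weak signals. SSX1 gave 2.58 and 6.67 in non-MG cells with vehicle and 5-azacytidine and 2.71 and 4.73 in MG cells, and stayed under detection throughout. Of the 2 SSX2 probes, SSX2 probe 2 gave 8.49 and 24.0 in non-MG cells and 8.85 and 33.6 in MG cells, and was detected with 5-azacytidine only. Its rise was at least 2.77-fold in non-MG cells, and the bound in MG cells was log2 1.58, against 1.30-fold and 1.38-fold with normexp. SSX2 probe 1 gave 3.39, 7.40, 2.97 and 3.19 on the same arrays and was not detected on any, so the 2 probes of this gene disagree on detection.

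Of the 3 SSX4B probes, read for SSX4, SSX4B probe 3 gave 2.34 and 16.5 in non-MG cells with vehicle and 5-azacytidine and 2.50 and 17.2 in MG cells. It was detected with 5-azacytidine only, and the rise was at least 1.90-fold in non-MG cells and at least 1.54-fold in MG cells. In MG cells it was 1.46-fold with quantile normalization and 1.17-fold with normexp, and in non-MG cells 1.38-fold with normexp. SSX4B probe 1 gave 4.91 and 16.4 in non-MG cells and 4.94 and 11.9 in MG cells. It was detected in non-MG cells with 5-azacytidine only, where the rise was at least 1.90-fold, and 1.29-fold with normexp. SSX4B probe 2 gave 2.33 to 3.03 and was not detected. At this signal, a difference under the detection limit was not measurable.

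Whether the populations differed in these antigens was read within each treatment. These comparisons use the same 4 arrays as the drug ratios. With vehicle, 4 probes had a value, of which 1 was higher and 2 were lower in MG than non-MG cells past 1.5-fold, and 7.47% and 9.76% of all probes were. The probes that were lower were both of PAGE2. The fall from non-MG to MG cells was 3.12-fold by probe 1 (log2 -1.64, spot error 0.24) and 3.02-fold by probe 2 (log2 -1.59, spot error 0.22). The probe that was higher was CTAG2, by at least 1.54-fold, next to the threshold. The log2 ratio of CTAG1A was -0.33 with a spot error of 0.24. With normexp background correction the log2 ratio of PAGE2 was -0.63 by probe 1 and -0.64 by probe 2, and that of CTAG2 was 0.06.

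With 5-azacytidine, 9 probes had a value. Of these, 2 were higher in MG than non-MG cells past 1.5-fold, against 7.54% of all probes, and 1 was lower, against 9.05%. XAGE1A was 2.46-fold higher in MG cells (log2 1.30, spot error 0.08) and CTAG2 1.59-fold higher (log2 0.67, spot error 0.11). SSX4B probe 1 was at least 1.77-fold lower in MG cells, while SSX4B probe 3 lay at log2 -0.29 with a spot error of 0.28. The PAGE2 ratios with 5-azacytidine were log2 0.13 (spot error 0.11) by probe 1 and 0.16 (spot error 0.10) by probe 2. CTAG1A was at log2 0.45 (spot error 0.08), PAGE1 at -0.10 (spot error 0.39) and SSX2 probe 2 at 0.12 (spot error 0.24). With median centring CTAG1A was at log2 0.70, past 1.5-fold.

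**Figure D4:**
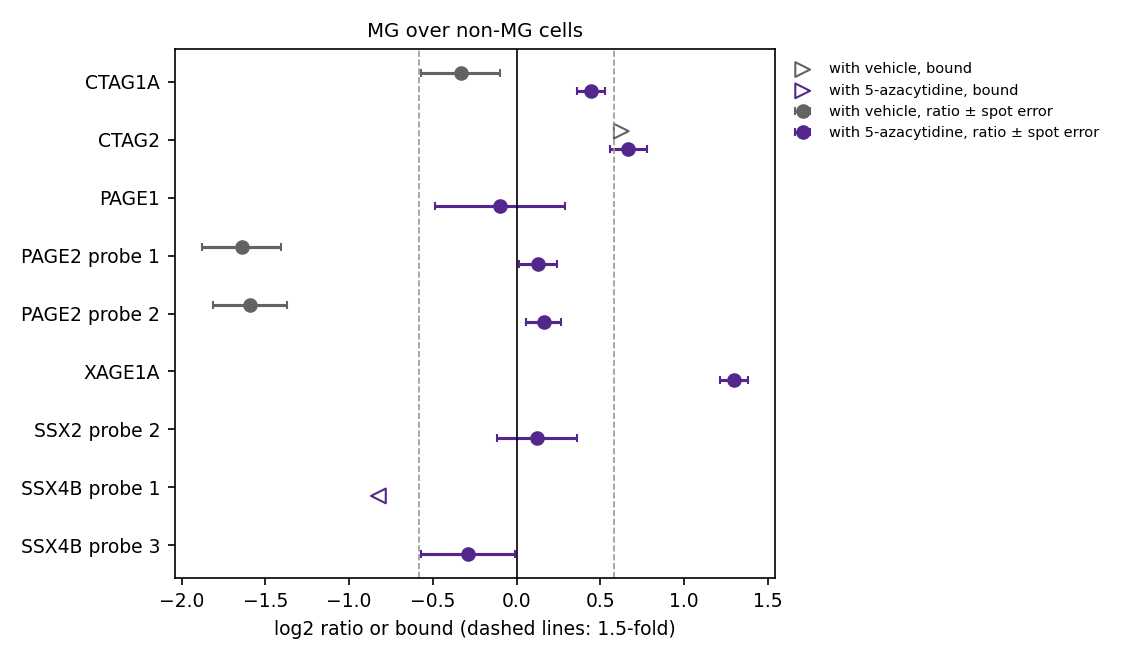
Log2 of the MG over non-MG signal (horizontal axis) for each antigen probe with a value, with vehicle (grey) and with 5-azacytidine (purple); filled points are ratios with the spot error, open triangles are bounds, and dashed lines mark 1.5-fold. Both PAGE2 probes lie left of the lower line with vehicle and near 0 with 5-azacytidine, and XAGE1A lies right of the upper line with 5-azacytidine.

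The drug ratio could be set against itself in the 2 populations for the 3 probes detected on all arrays. The log2 ratio in MG cells exceeded that in non-MG cells by 1.77 for PAGE2 probe 1, by 1.76 for PAGE2 probe 2 and by 0.78 for CTAG1A. With normexp the log2 ratios in non-MG and MG cells were 0.78 and 1.59 for PAGE2 probe 1 and 0.94 and 1.56 for probe 2. Those of CTAG1A were 2.33 and 2.97. The excess was thus smaller for all 3 probes with normexp, and PAGE2 no longer stood apart from CTAG1A. In the scaling used here, the vehicle arrays differed for PAGE2 and the drug arrays did not differ past 1.5-fold, whereas for CTAG1A neither pair did. With median centring the drug arrays differed past 1.5-fold for CTAG1A too (log2 0.70, higher in MG cells). With 1 array per condition this difference was not tested.

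**Figure D5:**
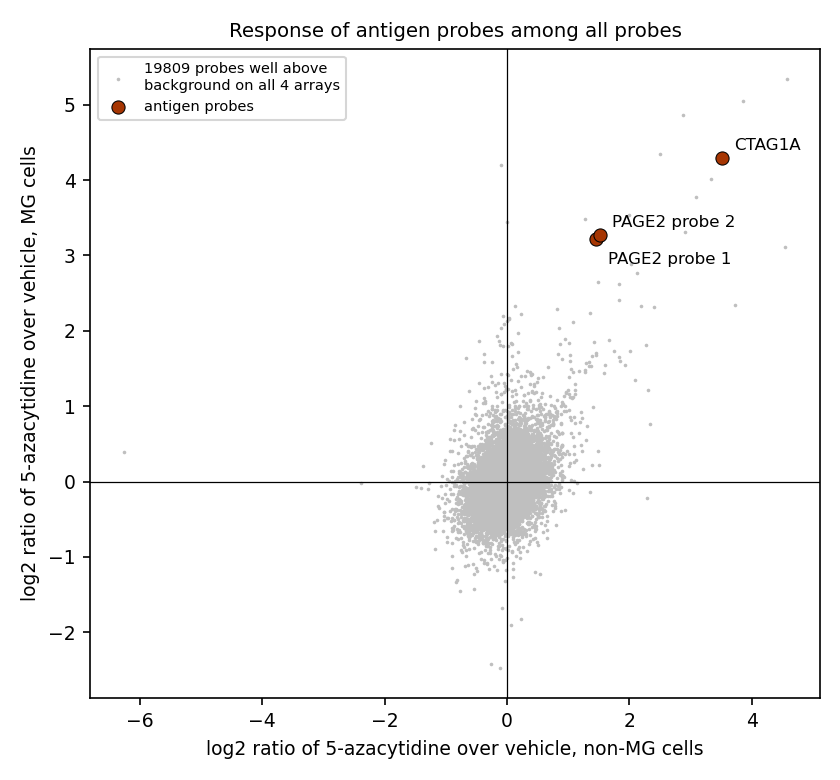
Log2 ratio of 5-azacytidine over vehicle in non-MG cells (horizontal axis) and in MG cells (vertical axis) for 19809 probes well above background on all 4 arrays (grey) and the 3 antigen probes among them (brown). CTAG1A lies at 3.51 and 4.29, and the PAGE2 probes at 1.45 and 3.22 and at 1.52 and 3.27, outside the bulk of probes.

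Relatives of the antigens in the same families were mostly silent. Of 32 further GAGE, PAGE and XAGE genes, 6 were matched, and GAGE1, XAGE2, XAGE3 and XAGE5 were undetected throughout. PAGE4, which is known from the prostate, gave 78.8 and 66.5 in non-MG cells with vehicle and 5-azacytidine and 48.3 and 73.3 in MG cells. Its log2 drug ratio was -0.04 (spot error 0.12) in non-MG cells and 0.63 (spot error 0.18) in MG cells, and with vehicle it was 1.85-fold lower in MG cells. PAGE2B, a neighbour of PAGE2, gave 10.8, 9.44, 3.93 and 29.0 on the same arrays, and was detected in MG cells with 5-azacytidine only, at least 2.59-fold higher than with vehicle.

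Of 9 further SSX genes 4 were matched, and SSX5, SSX7 and SSX8P were not detected. SSX3 was detected by 1 of its probes, at 25.8 and 29.2 in non-MG cells and 20.5 and 33.2 in MG cells, with log2 drug ratios of 0.39 (spot error 0.27) and 0.73 (spot error 0.24). Of the partners of SSX proteins, the interacting proteins SSX2IP and RAB3IP, the fusion partner SS18 and its relative SS18L1 were detected on all arrays. None was raised past 1.5-fold. SSX2IP was lowered in MG cells by 1 of 2 probes, from 126 to 80.1 (log2 -0.62, spot error 0.13), and the other gave 215 and 190.

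Other cancer-testis genes of the X chromosome were listed for comparison. Of 64, 47 were matched and 21 were detected on 1 or more arrays. By any of their probes, 8 genes were raised past 1.5-fold in non-MG cells and 12 in MG cells, of 20 and 23 probes that could be compared, and none was lowered. Of those raised, 5 and 10 were bounds, which could only be higher with the drug, and over all probes 3.91% and 5.69% were raised. Those with the widest drug ratio or bound were MAGEA9, raised at least 14.3-fold in non-MG and at least 17.0-fold in MG cells, FMR1NB, raised at least 4.13-fold and at least 12.4-fold, and CT45A5, raised 8.56-fold and at least 10.4-fold. CT45A1, VCX2, NXF2, MAGEA8 and MAGEA4 followed, at 2.77-fold to 6.82-fold by ratio or bound in MG cells. In non-MG cells the CT45A5 ratio had a spot error of 0.34 in log2, and its vehicle signal there was 10.8, next to the detection limit. Another VCX2 probe was not detected on any array. Over the probes of this list with a ratio, the median log2 drug ratio was 0.07 in non-MG and 0.26 in MG cells. MAGEA6 was bright without the drug, and 1 of its probes gave 4222 and 4087 in non-MG cells with vehicle and 5-azacytidine and 6125 and 6546 in MG cells.

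The machinery of DNA methylation was read as a fixed list of 20 regulators, all matched. DNMT1, the maintenance methyltransferase, gave 544 and 512 in non-MG cells with vehicle and 5-azacytidine and 780 and 760 in MG cells, with log2 drug ratios of 0.13 and 0.00. DNMT3B, a de novo methyltransferase, gave 455, 463, 557 and 571 on the same arrays. Of 28 probes of the list that could be compared in each population, 1 was raised, a dim TET2 probe in non-MG cells and a dim DNMT3A probe in MG cells, and none was lowered, against 3.91% and 5.69% of all probes raised. CTCFL, DNMT3L and TET3 were undetected throughout. These are transcript levels, and the proteins and the methylation of the promoters were not analysed here.

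Genes with the pattern most like XAGE1A were sought outside all lists, among 16946 named probes detected on both drug arrays. Values under an array's lowest detected signal were raised to it, and the 4 values of each probe were then centred on their mean. The 5 genes at the smallest Euclidean distance were taken. These were TKTL1, a transketolase relative, at a distance of 0.50, UCHL1, a ubiquitin hydrolase, at 0.71, H1-1, a linker histone, at 1.36, CXCL1, a chemokine, at 1.37, and PNMA5 at 1.93. TKTL1 gave 5.05 and 470 in non-MG cells with vehicle and 5-azacytidine and 8.64 and 1043 in MG cells. UCHL1 gave 2.01, 378, 2.28 and 612 on the same arrays. Both were undetected with vehicle and highest in MG cells with 5-azacytidine, as XAGE1A was. CXCL1 was well above background with vehicle too, at 145 and 1805 in non-MG cells with vehicle and 5-azacytidine and 146 and 4703 in MG cells. For CTAG1A, an addition made after its values had been seen, the closest were ZFP42 (distance 0.35), TCF15 (0.39), ICAM2 (0.44), EZHIP (0.55) and ADAD2 (0.67). Unlike CTAG1A, ZFP42, TCF15, EZHIP and ADAD2 were undetected on both vehicle arrays, and ICAM2 was undetected in MG cells with vehicle. These undetected values were raised to the lowest detected signal, so the closeness rests partly on that step.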

How the data were processed

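Total RNA of MG and non-MG HCT116 cells with 5 µM 5-azacytidine or vehicle was measured on 4 Agilent arrays, 1 per condition. Groups were taken from the sample labels. For RNA extraction, RNAiso Plus stands in the labels and an RNeasy kit in the study's methods. The authors deposited Agilent Feature Extraction output (version 11.5.1.1 per the file headers), with background-corrected linear intensity values and detection flags per spot, not normalized between arrays. The authors also deposited a log2 value table for 24189 probes, centred on each probe's median, in which 9 of the 12 antigen probes are held. Differences in it equalled those computed here to within a constant and 0.01 for 100% of 23504 single-spot probes compared, so it is the same scaling.

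From the deposited intensity, control spots and outlier spots were left out, which left 50594 probes, spots of a probe were averaged, and log2 values were taken relative to the 75th percentile over probes of each array. No spot of these was saturated. Accessions without version were matched to RefSeq (GRCh38.p14), which named 30000 probes (59.3%). Array coordinates, of an older genome build, were not used, and coordinates given are those of RefSeq promoters. The files used hold no gene names or probe sequences. With 1 array per condition no test was made, since a fit of cells and drug would take the difference in drug response between populations as its only error, and the number of arrays limits the precision. The scripts were tested on simulated data. R 4.3.3, limma 3.58.1, Python 3.11.15 and pandas 2.3.3 were used.

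The antigens and the gene lists were chosen with earlier results of these data known. Besides the 10 genes, at most 8 genes per list were named, by the larger drug ratio or bound, with the 5 genes closest to the brightest antigen probe. Others were named after their values were seen. Alternatives were normexp correction with an offset of 50, median centring, quantile normalization, the 75th percentile over probes detected on all arrays, the authors' values, ratios without bounds, only probes detected on all arrays, 2-fold, and the brightest probe of a gene. Added after seeing the data were own accessions only, another detection flag and the 75th percentile over spots. A marker gene of the lists is not reported here.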

Additional observations from a re-analysis of the deposited data

How the results depend on the processing

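No replicate was left out and no replicate block was fitted, because there was 1 array per condition and the labels give no replicate numbers. Of 240 alternative values of 30 ratios or bounds of antigen probes, 186 moved by less than the spot error of the 2 arrays combined (a wide margin for dim probes given as bounds) and 54 by more, 22 of these with normexp correction, whose offset compresses dim signals. Of 23 values past 1.5-fold, 10 fell below it with normexp, 2 with median centring, 2 with quantile normalization and 1 with the 75th percentile over spots. No value past 1.5-fold changed sign. Below that, the log2 difference between MG and non-MG cells with 5-azacytidine changed sign for PAGE1, to 0.16 with median centring, and for PAGE2 probe 2, to -0.02 with normexp. With normexp, 5 probes were raised in non-MG cells and 5 in MG cells, 0 were higher in MG cells with vehicle, and with 5-azacytidine 1 was higher and 0 were lower in MG cells. Among probes detected on all arrays, 3 were raised in each population, and 0 were higher in MG cells with vehicle, 0 higher with 5-azacytidine and 0 lower with 5-azacytidine. With a 2-fold threshold, 6 were raised in each population, 0 were higher in MG cells with vehicle, and with 5-azacytidine 1 was higher and 0 were lower. With the brightest probe per gene, 1 was lower in MG cells with vehicle. With median centring, 3 were higher in MG cells with 5-azacytidine, CTAG1A being added, and 0 were lower. With own accessions only, 6 were raised in each population, and with 5-azacytidine 1 was higher and 0 were lower in MG cells. With the positive-and-significant flag for detection, 11 probes were raised in non-MG cells and 10 in MG cells, and 3 were lower in MG cells with 5-azacytidine. The authors' values gave the same counts as the scaling used here. Except for raised probes detected on all arrays, the counts under other settings stand without the share of all probes called likewise. They describe the antigen probes only. Matching by gene name was not run, since the files used hold none, and normexp used the median spot signal. Detection limits PAGE1, SSX1, SSX2 and SSX4, whose signals were at most 33.6.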
